A study of Drosophila melanogaster with 2 samples.

Results

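Divergent promoters are places where 2 genes start close together and are transcribed away from each other. In the map of the CG2202 protein in Drosophila melanogaster embryos, 581 of the 3571 peaks of the IDR list (16.3%, 95% interval 15.1 to 17.5%) lay at such places. The IDR (irreproducible discovery rate) list was made by the authors from the lists of both replicates and of the pooled reads, by a method that scores how reproducible the rank of a peak is. A peak was a member when its summit lay within 500 bp of an annotated transcription start site (TSS) on each strand, at least 1 of them the TSS of a protein-coding gene. For each member the pair with the smallest summed distance to the summit was used, which gave 563 gene pairs and 1125 genes. The rule allows any order of the TSSs, and 551 members (94.8%, 92.7 to 96.5%) had the head-to-head order that the name divergent promoter implies. In the other 30 the 2 transcripts overlapped at their 5′ ends.

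Chromatin immunoprecipitation and sequencing (ChIP-seq) was done on whole embryos collected 0 to 12 h after laying, from a transgenic fly line that stably expresses CG2202 with a green fluorescent protein (GFP) tag at its C terminus, using an antibody against GFP. The 2 samples form 1 group and are labelled as biological replicates 1 and 2 of that line. Both share the tag, the line and the stage, and each replicate's peaks were called against a control alignment. Whole embryos of these hours mix many cell types and stages, so a peak cannot be assigned to a cell type. All intervals are exact binomial (Clopper-Pearson) 95% intervals that cover the counting of peaks or gene pairs only. Peaks of a list are not replicates, so no p-value is given, and the spread is shown by the lists of each replicate alone.

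Head-to-head gene pairs are common in the compact fly genome. Their shared upstream region is usually depleted of nucleosomes, and the pairs are rich in genes used by most cells. In Drosophila such promoters are known for binding by DREF, BEAF-32 and M1BP, whose recognition words lie close to the start sites. CG2202 was assayed as a transcription factor, and no binding word for it was given in the sources used here.

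The sequences between the start sites are shown first, because the results turn on where in this stretch the summit lies. Each is the plus strand of Release 6 (dm6) from NCBI RefSeq, read 5′ to 3′, and holds every base strictly between the 2 TSSs, with no annotated exon inside. The minus-strand gene, named first, starts just before the left end, and the plus-strand gene starts just after the right end. The stretches were taken from pairs of 2 coding genes at most 300 bp apart. In these 6 pairs of high signal the capitals mark the summit and 5 bases on either side.
Art3/mRpS10, chr3R:15229409-15229664: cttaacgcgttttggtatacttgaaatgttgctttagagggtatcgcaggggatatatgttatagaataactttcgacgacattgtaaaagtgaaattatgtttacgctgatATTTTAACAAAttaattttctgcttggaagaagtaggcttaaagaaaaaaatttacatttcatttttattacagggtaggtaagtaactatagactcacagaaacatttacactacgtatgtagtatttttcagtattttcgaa
Tcs5/CHMP2B, chr3L:5139396-5139618: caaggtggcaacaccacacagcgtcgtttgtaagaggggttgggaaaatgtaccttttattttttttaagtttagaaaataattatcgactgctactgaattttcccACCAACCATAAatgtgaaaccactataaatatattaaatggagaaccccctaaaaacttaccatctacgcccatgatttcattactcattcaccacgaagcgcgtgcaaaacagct
CG13390/CG17294, chr2L:8376798-8377034: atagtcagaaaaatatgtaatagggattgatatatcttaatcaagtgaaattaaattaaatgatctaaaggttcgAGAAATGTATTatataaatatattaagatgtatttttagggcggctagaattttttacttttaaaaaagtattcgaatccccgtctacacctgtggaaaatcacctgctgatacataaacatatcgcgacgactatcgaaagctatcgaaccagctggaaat
Lon/PIG-F, chr3L:19612200-19612454: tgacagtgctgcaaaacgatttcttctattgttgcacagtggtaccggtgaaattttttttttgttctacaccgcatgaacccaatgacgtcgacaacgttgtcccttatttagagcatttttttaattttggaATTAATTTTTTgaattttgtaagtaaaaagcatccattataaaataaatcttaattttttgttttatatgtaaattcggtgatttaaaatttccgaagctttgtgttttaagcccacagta
Mkk4/SLIRP2, chr3R:8650797-8651083: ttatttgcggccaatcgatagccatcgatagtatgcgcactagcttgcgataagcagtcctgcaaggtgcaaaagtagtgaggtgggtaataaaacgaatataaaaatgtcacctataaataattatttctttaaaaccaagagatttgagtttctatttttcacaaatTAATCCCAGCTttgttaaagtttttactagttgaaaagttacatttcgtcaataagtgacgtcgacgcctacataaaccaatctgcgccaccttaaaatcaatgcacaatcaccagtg
fws/Lamtor3, chr2L:17481030-17481230: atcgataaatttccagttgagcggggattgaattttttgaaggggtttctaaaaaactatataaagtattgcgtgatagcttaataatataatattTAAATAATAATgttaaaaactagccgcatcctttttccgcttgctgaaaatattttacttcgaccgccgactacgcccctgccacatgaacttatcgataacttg

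In these 6 pairs the summit fell in AT-rich sequence away from both start sites. In Art3/mRpS10 it lay 118 bp from the start of Art3, an arginine methyltransferase gene, and 139 bp from that of mRpS10, a mitochondrial ribosomal protein gene. In Tcs5/CHMP2B the distances were 113 and 111 bp, and in fws/Lamtor3 they were 102 and 100 bp. The word TATCGATA, the DRE bound by DREF, occurred 1 time in the fws/Lamtor3 stretch, close to the Lamtor3 start, and in none of the other 5. The shorter word CGATA, part of the DRE and of BEAF-32 sites, occurred on either strand 3 times each in CG13390/CG17294, Mkk4/SLIRP2 and fws/Lamtor3. None of these CGATA matches touched the capitals.

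The next stretches show pairs of high signal with start sites closer together, 105 bp apart in Chro/Ssl1 and 39 bp apart in CG11309/CG7632. They have no capitals, because the summit lay outside, 68 bp inside Chro and 81 bp inside CG11309.
Chro/Ssl1, chr3L:22878985-22879088: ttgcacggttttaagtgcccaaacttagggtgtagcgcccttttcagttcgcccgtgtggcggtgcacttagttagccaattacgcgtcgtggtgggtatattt
CG11309/CG7632, chr3L:21304659-21304696: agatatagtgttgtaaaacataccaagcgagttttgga

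The last stretches show the word GGTCACAC, the core of core promoter motif 1, to which M1BP binds. Of the 17 words examined it had the highest ratio of its share in members to that at unidirectional coding promoters, 2.53, with intervals of the 2 shares that overlap. Its share was 3.19% of divergent peaks in the top of replicate 1 and 1.62% in the top of replicate 2. Both pairs were taken by signal among those at most 300 bp apart that hold the word in this stretch, so the stronger CG7130/RpLP0, 336 bp apart, is not shown. The capitals mark that word or its reverse complement.
CG13690/RpLP1, chr2L:419653-419951: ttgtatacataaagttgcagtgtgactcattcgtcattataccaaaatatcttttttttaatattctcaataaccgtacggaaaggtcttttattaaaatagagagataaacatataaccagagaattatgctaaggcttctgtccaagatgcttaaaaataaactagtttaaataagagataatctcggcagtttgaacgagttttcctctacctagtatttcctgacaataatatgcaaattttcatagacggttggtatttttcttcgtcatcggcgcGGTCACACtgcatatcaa
CG9356/CG8135, chr3R:9404270-9404384: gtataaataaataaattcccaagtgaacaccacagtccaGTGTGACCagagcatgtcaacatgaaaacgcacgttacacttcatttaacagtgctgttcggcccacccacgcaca

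In CG13690/RpLP1 the word and the summit both lay near the start of RpLP1, a ribosomal stalk protein gene, with the summit 20 bp from it and 280 bp from the start of CG13690. In CG9356/CG8135 the summit lay 10 bp from the start of CG9356 and 106 bp from that of CG8135.

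The strongest divergent promoter peaks are given by gene pair with the value in each replicate. Signal is the authors' own value for each peak, set by the peak caller on a scale that differs between lists, so that it ranks peaks within a list only. The member of highest signal was Art3/mRpS10 (FBgn0038306 and FBgn0038307), with an IDR signal of 1421, rank 11 of all IDR peaks. Its signal was 523.3 in the list of replicate 1, where it ranked 30, and 897.9 in the list of replicate 2, where it ranked 5. Chro/Ssl1 (FBgn0044324 and FBgn0037202) followed with 1354. Chro encodes Chromator, a chromodomain protein of interbands, and Ssl1 a subunit of TFIIH. It ranked 13 in replicate 1 and 18 in replicate 2. CG5611/Mtl had a signal of 1328, with ranks of 28 and 14. Tcs5/CHMP2B (FBgn0035590 and FBgn0035589) had 1320, with ranks of 21 and 17. Tcs5 encodes a kinase of the KEOPS tRNA modification complex, and CHMP2B a subunit of the membrane-sculpting ESCRT-III complex. The uncharacterised pair CG11309/CG7632 had 1237, with ranks of 52 and 12.

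All 25 members of highest signal, which ran from 1421 down to 735.1 at CG4743/Idh3g, had head-to-head order and lay within the top 3571 peaks of both replicates. They ranked higher in replicate 2 in 21 cases. Mitochondrial function was represented by mRpS23/CenG1A at 1165, Lon/PIG-F at 860.7 and mRpL23/CG9004 at 852.4. Lon is a mitochondrial protease, and PIG-F acts in making GPI anchors. Membrane and secretory functions were represented by Pex11ab/CG8320 at 1101, a peroxisome gene, by Stt3A/bves at 853.3, where Stt3A is the catalytic subunit of oligosaccharyltransferase, and by fws/Lamtor3 at 785.8, where fws is a Golgi complex gene and Lamtor3 encodes a Ragulator subunit. Regulators among them were eIF4EHP/CG18428 at 917.8, a translational repressor that binds the mRNA cap, Mkk4/SLIRP2 at 807.9, a kinase of the JNK pathway, and Cp190/CG4338 at 764.9, an insulator cofactor. A pair with a transfer RNA gene, tRNA:Tyr-GTA-1-8/CG8036, had 829.8, and a pair with a long noncoding RNA, lncRNA:CR44149/brwl, had 757.5.

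**Figure D1:**
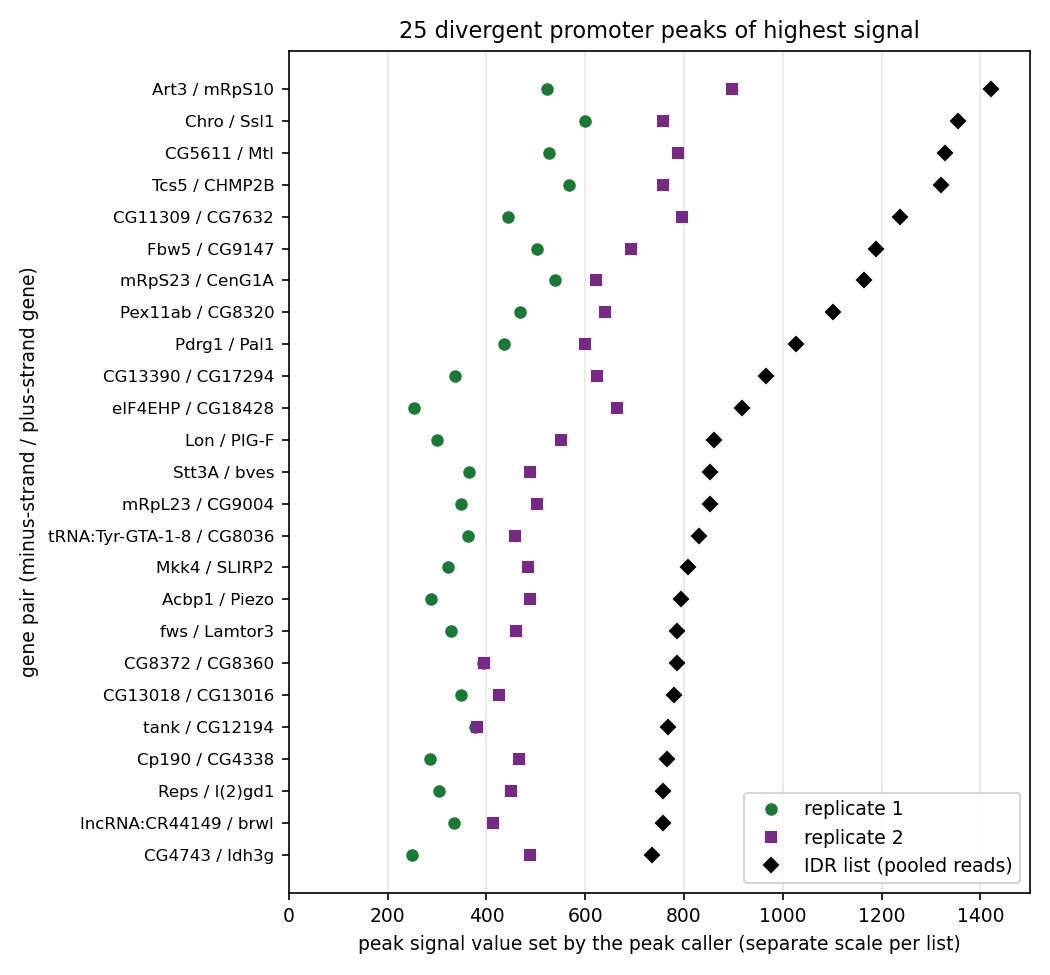
Signal values of the 25 divergent promoter peaks of highest IDR signal, by gene pair. Circles, squares and diamonds give the values in the lists of replicate 1, replicate 2 and the IDR list, each on its own scale, and the IDR values run from 735.1 to 1421.

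The median signal of members was close to that of other promoter peaks. The median IDR signal of members was 192.1 (quartiles 145.8 and 286.0, range 120.9 to 1421). It was 189.4 for the 930 IDR peaks at unidirectional coding promoters, which have TSSs within 500 bp on a single strand, and 193.5 for all IDR peaks. Members made up 24 of the 100 IDR peaks of highest signal (24.0%, 16.0 to 33.6%) and 168 of the top 1000 (16.8%, 14.5 to 19.3%). The differences between these sets were not tested.

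Most pairs joined 2 protein-coding genes, 525 of 581 (90.4%, 87.7 to 92.6%). A noncoding RNA gene was the partner in 50 (8.61%), with a median signal of 180.7 (range 122.1 to 757.5). A tRNA gene was the partner in 5, with a median of 202.0, and a snoRNA gene in 1, at 218.4. In 0 members the closest pair held a snRNA or rRNA gene. More than 2 genes had TSSs within 500 bp in 43 members, and in those the choice of pair depends on the annotation.

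To see which head-to-head promoters carried a peak, the annotation was searched for all such pairs with at least 1 protein-coding gene and TSSs 1 to 1000 bp apart. There were 3207, and 598 of them (18.6%, 17.3 to 20.04%) held an IDR summit within 500 bp of both TSSs. This count is above the number of head-to-head members because a summit can serve more than 1 annotated pair. The top 3571 peaks of replicate 1 reached 481 of the pairs and those of replicate 2 reached 698 (21.8%). Pairs of 2 coding genes held an IDR summit in 551 of 2667 cases (20.7%, 19.1 to 22.2%), and pairs with a noncoding gene in 47 of 540 (8.70%, 6.47 to 11.4%). By chromosome arm the share was highest on 3R, at 23.3% of 784 pairs (20.4 to 26.5%), and lowest among the 5 large arms on X, at 12.8% of 476 (9.95 to 16.2%). Each replicate alone also had 3R highest and X lowest of the large arms, with 18.8% on 3R against 10.9% on X in replicate 1, and 26.7% against 13.4% in replicate 2. The other large arms lay between, at 18.7% on 2L, 16.5% on 2R and 19.97% on 3L, and chromosome 4 had 1 of 20 pairs. On 3R 183 pairs held a summit and 163 members lay there. The counts were 120 and 125 on 2L, 111 and 111 on 2R, 122 and 122 on 3L, and 61 and 59 on X. The share on 3R thus rests in part on summits counted for more than 1 pair. At 1 summit on 3R, that of pre-mod(mdg4)-E/pre-mod(mdg4)-Y, 7 plus-strand and 3 minus-strand genes had TSSs within 500 bp. How many pairs that summit serves was not counted.

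The share of pairs with a summit was highest at a spacing of over 200 to 300 bp. There 196 of 640 annotated pairs (30.6%, 27.1 to 34.4%) held an IDR summit. The share was 26.7% (22.6 to 31.0%) of 446 pairs at over 300 to 400 bp, and 17.9% (14.5 to 21.8%) of 446 pairs at over 100 to 200 bp. It was 20.99% (17.5 to 24.9%) of 486 pairs at up to 100 bp and 13.9% (11.2 to 17.0%) of 574 at over 400 to 600 bp. Up to 100 bp, 102 pairs held a summit against 72 head-to-head members, where over 200 to 300 bp the counts were 196 and 188. Summits that serve more than 1 pair, or whose closest TSSs fall in another bin, thus enter the share of the closest pairs most. At over 600 to 1000 bp it was 3.41%, but the rule leaves less room there, since the stretch within 500 bp of both TSSs shrinks as they move apart. Per megabase of that stretch, the number of pairs holding a summit was 222 up to 100 bp, 210 up to 200, 410 up to 300, 408 up to 400, 274 up to 600 and 155 up to 1000 bp, each bin starting where the one before ends. Each replicate alone had its highest share of pairs in the same bin, 24.1% in replicate 1 and 35.6% in replicate 2. The median spacing of head-to-head members was 270 bp (quartiles 194 and 372.5), against 305 bp (168 and 524) in all annotated pairs.

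**Figure D2:**
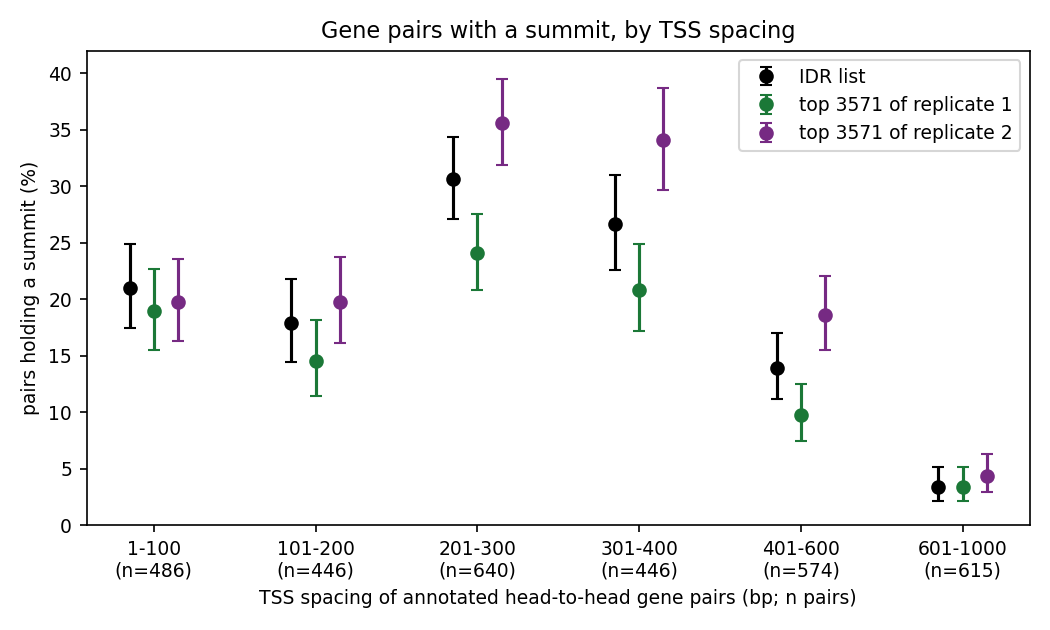
Share of annotated head-to-head gene pairs that held a summit within 500 bp of both TSSs, by TSS spacing, for the IDR list and for the top 3571 peaks of each replicate, with exact binomial 95% intervals. All 3 lists were highest at over 200 to 300 bp, where the IDR share was 30.6%.

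Summits sat between the start sites in most pairs and near the middle. Among head-to-head members, 433 of 551 summits (78.6%, 74.9 to 81.9%) lay between the TSSs. Replicate 1's own summits did so in 76.9% of 549 members and replicate 2's in 80.1% of 549, and in 397 of 547 both did. Where the summit lay between, its distance from the midpoint had a median of 43 bp, and 247 of 433 (57.0%, 52.2 to 61.8%) lay within 50 bp of it. The distance to the nearer TSS had quartiles of 67 and 139 bp. On a scale from 0 at the nearer TSS to 0.5 at the midpoint, the median position was 0.348, with 63.3% of these summits at 0.3 or above and 6.93% below 0.1. Neither strand was favoured, as 219 of 433 (50.6%, 45.8 to 55.4%) were nearer the plus-strand TSS.

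The comparison group was the 1564 divergent peaks among pooled peaks that overlap no IDR peak, called weaker here. They have a median signal of 58.9 on the scale of the IDR list, and many pooled peaks did not reach a caller q-value of 0.05, so they are not a set of proven weaker sites. Their summits lay between the TSSs in 895 of 1447 head-to-head cases (61.9%, 59.3 to 64.4%). Within those 895, the median distance from the midpoint was 70.5 bp and 39.3% (36.1 to 42.6%) lay within 50 bp of it. The median spacing was 264 bp (quartiles 125 and 378.5) against 270 bp (194 and 372.5) in members. Pairs up to 100 bp apart held 270 of the 1447 weaker peaks and 72 of the 551 members, and those over 100 to 200 bp apart held 239 and 73, so the weaker peaks held a larger share of close pairs. Both the share between the TSSs and the share near the midpoint were lower than in members, with intervals that did not overlap, and no test was made. Within pairs over 100 to 200 bp apart, 43.1% of weaker summits and 57.5% of member summits lay between the TSSs. Over 200 to 300 bp apart the shares were 69.7% and 93.6%. Pairs up to 100 bp apart went the other way, with 27.4% and 18.1%. The part that spacing has in the lower shares was not tested.

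The share of summits between the TSSs moved with spacing. At over 200 to 300 bp, 176 of 188 members (93.6%, 89.1 to 96.7%) had the summit between the TSSs, although only 33.9% of the allowed positions lie there. The weaker peaks of that bin had 69.7%. At over 100 to 200 bp the share was 57.5% of 73 members against 17.5% of positions, and at over 300 to 400 bp it was 88.1% of 109 against 53.7%. At up to 100 bp only 13 of 72 members (18.1%, 9.98 to 28.9%) had it between, where 6.536% of positions lie and where the weaker peaks had 27.4%. In the other 59 of those close pairs the summit lay a median of 60 bp past the nearer TSS (quartiles 24 and 93), inside a gene. Over all spacings, 118 summits lay outside, a median of 44.5 bp past the nearer TSS, and 59 of them were on the side of the plus-strand gene.

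**Figure D3:**
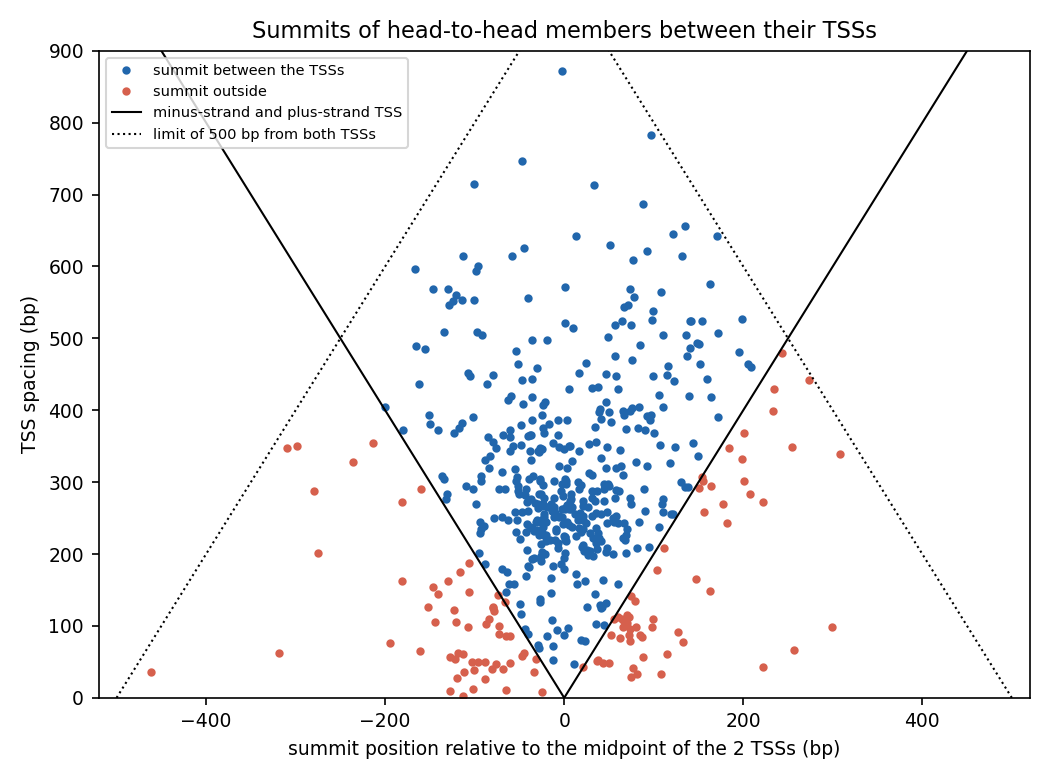
Position of each head-to-head member's summit relative to the midpoint of its 2 TSSs, against their spacing. Solid lines mark the TSSs and dotted lines the 500 bp limit, blue points are the 433 summits between the TSSs and red points the 118 outside, most of which belong to pairs under 200 bp apart.

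The pairs at the ends of the range of spacing show both arrangements. Among the closest were dpa/didum, 2 bp apart, SerRS/CG17260 at 8 bp, lncRNA:CR44209/Cyt-b5 at 9 bp and CG2004/CG1785 at 12 bp. In these 4 the summit lay outside, on the side of the minus-strand gene, for example 112 bp inside dpa, which encodes the replicative helicase subunit Mcm4, and 21 bp inside SerRS, the seryl-tRNA synthetase gene. Their signals ran from 164.3 at dpa/didum to 326.2 at SerRS/CG17260. The 5 widest were lncRNA:CR45668/Act5C at 872 bp, pyx/CG33229 at 783, lncRNA:CR43644/E(spl)m3-HLH at 747, CG4766/lncRNA:CR44498 at 714 and spirit/CG12065 at 713. All 5 summits lay between the TSSs, as the 500 bp rule requires at such spacing. In lncRNA:CR45668/Act5C, next to a cytoplasmic actin gene, the summit was 433 and 439 bp from the 2 TSSs. Of these, lncRNA:CR43644/E(spl)m3-HLH, next to a Notch target gene, overlapped a peak of replicate 1 (signal 114.99) and no peak of replicate 2.

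Of the 30 members with overlapping order, 12 had another, head-to-head pair within the window, and 13 joined 2 coding genes. The overlap of the transcripts had a median of 149 bp and ranged from 2 to 871 bp. Their median signal was 174.1. The strongest were CG31808/Cyt-c-d at 681.1, next to a cytochrome c gene, and CG4741/Adck1 at 542.9, both named after their values were seen.

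In 18 gene pairs there were 2 member peaks each. The gap between their summits was 199 to 206 bp in all 18 (median 202), and what sets this narrow range, and whether both summits of a pair are separate sites, was not tested. The stronger peak had 1.00 to 3.52 times the signal of the weaker (median 1.68). In CG3437/CG3552 the IDR signals were 727.5 and 206.4, and both peaks overlapped the same peak of each replicate, with signals of 318.8 and 409.0. In Fer1HCH/Fer2LCH, which encode the heavy and light chains of secreted ferritin, the signals were 303.9 and 303.1, and the second peak overlapped none of replicate 2. Counting 1 peak per pair would leave 563 members.

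Of the 17 gene lists, all but the small list of insulator proteins had a lower share of pairs with a summit than cytoplasmic ribosomal protein genes. Of 61 annotated head-to-head pairs with such a gene, 30 held an IDR summit (49.2%, 36.1 to 62.3%), against 18.6% of all pairs. The share was 50.8% with replicate 1 alone and 44.3% with replicate 2 alone. The 32 member peaks had a median signal of 293.9, against 192.1 for all members, and 30 of them lay within the top 3571 of both replicates. The list was made by gene symbol and includes RpLP0-like, whose product acts in ribosome assembly. RpS27/Nup37 had the highest signal, 615.9, with 413.4 in replicate 1 and 203.2 in replicate 2. Ripalpha/RpL7 had 569.8, with 389.2 and 183.1. RpL34b/CG8132 had 514.0, with 218.2 and 309.7, and Nelf-E/RpL14 had 508.4, with 289.8 and 216.8. By rank within each list, RpL34b/CG8132 was higher in replicate 2 (360 in replicate 1 and 208 in replicate 2), and the other 3 were higher in replicate 1, for example 65 and 543 at RpS27/Nup37.

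In most ribosomal protein pairs the summit was nearer the start of the ribosomal protein gene than that of its partner. In the 31 head-to-head members the distance to that gene's TSS had a median of 27 bp (quartiles 15.5 and 94.5), and to the partner's TSS a median of 208 bp (110.5 and 301.5). The summit was nearer the ribosomal protein gene in 26 of 31, and within 50 bp of its TSS in 18 of 31. It was 5 bp from the start of RpS27 and 181 bp from that of Nup37, a nuclear pore gene. It was 18 bp from the start of RpLP0, 6 bp from that of RpL3 and 6 bp from that of RpL13, whose partner is the gene of the transcription factor Dref. Other pairs differed. The stronger summit of RpL34b/CG8132 was 111 bp from the start of RpL34b and 158 bp from that of CG8132. In RpL34a/Trmt61 the summit was 143 bp from the start of RpL34a and 86 bp from that of Trmt61. These distances were looked at after other values were seen. In the other lists with more than 5 such members that name a gene function, the summit was nearer the listed gene in 2 of 12 for mitochondrial ribosomal proteins, 2 of 14 for the RNA polymerase II machinery, 5 of 11 for oxidative phosphorylation and 9 of 17 for vesicle traffic. It was nearer in 3 of 6 for insulator proteins, 4 of 7 for translation factors, 4 of 6 for aminoacyl-tRNA synthetases and 5 of 7 for splicing factors. The median distance to the listed gene's TSS in these 8 lists ran from 89 to 166 bp. The ribosomal protein summits also lay in sequence of higher GC content, a mean of 46.0% (SD 7.85, n = 32) within 50 bp, against 31.1% (SD 9.23, n = 549) in the other members. They ranked higher in replicate 1 in 27 of 32 cases, where the other members did so in 131 of 544. Whether GC content or the replicate's preference bears on the position was not tested.

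The other lists of gene functions had shares from 11.1% to 55.6%, most with wide intervals. IDR summits were held by 5 of 9 pairs with insulator and architectural protein genes (55.6%, 21.2 to 86.3%), 3 of 8 with Polycomb and trithorax group genes and 18 of 65 with vesicle traffic genes (27.7%, 17.3 to 40.2%). The count was 13 of 49 for the RNA polymerase II machinery (26.5%, 14.9 to 41.1%), 7 of 28 for splicing factors, 7 of 29 for translation factors, 6 of 27 for aminoacyl-tRNA synthetases, 11 of 51 for oxidative phosphorylation and 13 of 61 for mitochondrial ribosomal proteins. It was 4 of 22 for DNA replication and cell cycle genes, 2 of 12 for heat shock genes, 3 of 27 for the proteasome, 5 of 36 for tRNA genes and 6 of 28 for snRNA and snoRNA genes. For snRNA and snoRNA genes only 1 member had such a gene in its closest pair, as a summit can serve more than 1 pair. Genes known only by a CG symbol had 289 of 1669 pairs (17.3%, 15.5 to 19.2%), close to the 18.6% of all pairs, and long noncoding RNA genes had 36 of 476 (7.56%, 5.35 to 10.3%). In 0 members were both genes on the same list, leaving out the CG-symbol and noncoding lists.

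Among the insulator genes were those of proteins that bind divergent promoters themselves. Besides Chro/Ssl1 and Cp190/CG4338, members included Dref/RpL13 at 310.0 (207.6 in replicate 1 and 94.8 in replicate 2) and M1BP/CG8202 at 301.4. Of the chromatin regulators, E(z)/Cnep1r2, with the gene of the H3K27 methyltransferase, had 530.5 (130.5 and 400.96), and brm/Arl1, with the gene of the SWI/SNF ATPase, had 497.1 (154.9 and 343.1). In both the summit lay between the TSSs, 109 bp from the start of E(z) and 114 bp from that of brm. PolD2, a DNA polymerase delta subunit gene, was paired with CG13933 at 667.6 (203.7 and 470.9). Among the RNA polymerase II genes, elm/MED27 had 379.4, 140up/Polr2B 342.0 and Taf5/Pex6 334.7, and all 14 peaks of that list ranked higher in replicate 2.

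The replicates supported the members unequally. Of 581 members, 576 (99.1%, 98.0 to 99.7%) overlapped a peak of both replicates by at least 1 bp, as did 3519 of all 3571 IDR peaks. Within the top 3571 peaks of each replicate the counts were 415 for replicate 1 (71.4%, 67.6 to 75.1%, where all IDR peaks had 81.2%) and 536 for replicate 2 (92.3%, 89.8 to 94.3%, where all IDR peaks had 82.4%). Both replicates held 373 (64.2%, 60.2 to 68.1%, where all IDR peaks had 64.7%), replicate 2 alone held 163, replicate 1 alone 42 and neither 3. The share in both was thus near that of the whole list, while the shares of the single replicates lay on either side of it. Peaks at unidirectional coding promoters had 81.0% for replicate 1 and 83.01% for replicate 2. Of the 576 members in both lists, 418 (72.6%, 68.7 to 76.2%) ranked higher in replicate 2, against 511 of 913 (56.0%, 52.7 to 59.2%) at unidirectional coding promoters and 53.4% of all IDR peaks. The Spearman rank correlation between the replicates' signals was 0.515 across the 576 members, which share a library within each replicate and were selected by both. Matching each member to the replicate peak with the nearest summit, a choice made after the data were seen, gave 69.4% and 90.7%.

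The difference between replicates moved with GC content. Members with under 25% GC within 50 bp of the summit ranked higher in replicate 2 in 145 of 151 cases (96.0%, 91.6 to 98.5%). The share was 79.9% of 244 at 25 to 35% GC, 60 of 120 at 35 to 45%, and 29.5% of 61 (18.5 to 42.6%) at 45% or more. The median signal in replicate 1 was alike across these bands, 80.5, 81.8, 85.5 and 93.5, while in replicate 2 it was 159.9, 125.6, 93.9 and 88.2. Peaks at unidirectional coding promoters had the same order of shares, 89.9%, 68.2%, 39.7% and 28.1%. The 163 members in the top of replicate 2 alone had a mean GC content of 29.6% (SD 8.02), a median spacing of 273 bp and 85.2% of head-to-head summits between the TSSs. The 42 of replicate 1 alone had 40.9% (SD 9.54), 175 bp and 65.9% of 41. The part that the libraries' response to GC content has in the results was not tested.

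**Figure D4:**
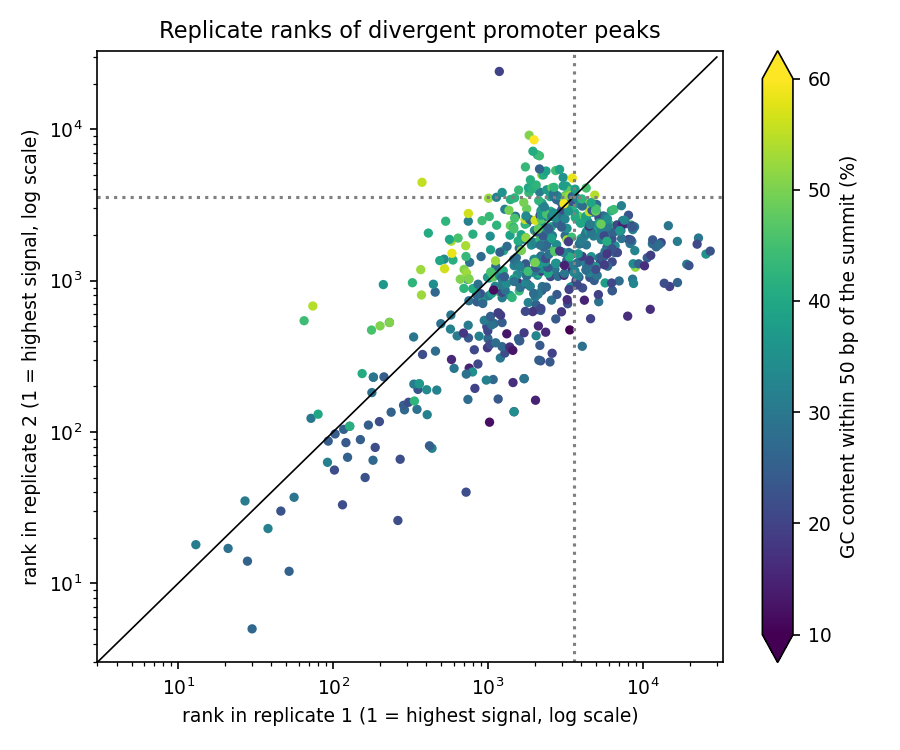
Rank of the 576 divergent promoter peaks found in both replicate lists, on log axes where 1 is the highest signal, coloured by GC content within 50 bp of the summit. The solid line marks equal ranks and the dotted lines rank 3571, and points below the solid line, 418 of 576, ranked higher in replicate 2 and are mostly of low GC content.

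The members whose ranks differed most between the replicates were 4 within the top 3571 of replicate 2 and far down replicate 1, and 1 the other way. Max/Mettl5, where Max is the partner of Myc, ranked 27192 in replicate 1 and 1566 in replicate 2. CG10324/CCT3 ranked 25527 and 1496, where CCT3 is a chaperonin subunit gene. Plap/CG31922 ranked 22836 and 1911, and CG32590/Flo2 22384 and 1740. M1BP/CG8202 ranked 1183 in replicate 1 and 24090 in replicate 2, with signals of 119.9 and 18.6 and an IDR signal of 301.4. Low ranks such as these belong to peaks near the lower end of lists cut at 30000 peaks. A replicate peak that lies beside a member without overlapping it is not counted here.

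Sequence around the summits was AT-rich. GC content within 50 bp was a mean of 31.9% (SD 9.76, n = 581) in members, 35.4% (SD 10.6, n = 930) at unidirectional coding promoters and 39.0% (SD 10.01, n = 1564) in weaker divergent peaks. It was 36.1% at divergent peaks in the top of replicate 1 and 29.5% in the top of replicate 2, so the difference between replicates was of similar size to that between members and weaker peaks. In members the mean rose from 31.3% within 25 bp of the summit to 36.3% at over 50 to 100 bp and 40.0% at over 150 to 200 bp. At unidirectional coding promoters it rose in the same way, from 34.9% within 25 bp to 38.9% and 42.2% at those distances. In weaker peaks it was 39.0% at the summit and 41.2% at over 150 to 200 bp. Over the whole stretch between the TSSs, pairs over 200 to 300 bp apart had 34.4% (SD 4.82, n = 196) with an IDR summit and 36.4% (SD 7.21, n = 444) without, and pairs over 300 to 400 bp apart had 33.8% (SD 4.61, n = 119) and 34.2% (SD 5.86, n = 327). The closest and widest pairs went the other way, with 46.95% (SD 9.28, n = 92) against 44.6% (SD 9.74, n = 349) up to 100 bp, the shortest stretches left out, and 37.7% (SD 4.87, n = 21) against 36.9% (SD 5.75, n = 594) over 600 bp. Over 100 to 200 bp the means were 39.1% and 40.6%, and over 400 to 600 bp they were 34.6% and 34.8%. Pairs that share a summit were each counted in these means.

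Of 17 short words searched on both strands within 50 bp of the summit, those most frequent in members were AT-rich. TATAAA, the TATA box word, was in 29.1% (25.4 to 33.0%) of members, 20.8% of unidirectional coding promoters, 16.8% of weaker divergent peaks and 22.8% of the midpoints of all annotated pairs. TTTAAA was in 25.6%, 21.1%, 16.9% and 21.5% in that order. These words overlap in letters and their frequency moves with AT content. Members with TATAAA had a mean GC content of 26.0%, and 139 of 168 ranked higher in replicate 2. The share of divergent peaks with TATAAA was 23.2% in the top of replicate 1 and 32.4% in the top of replicate 2.

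The words of DREF, BEAF-32 and M1BP and the core of motif 7 were in a larger share of members than of unidirectional coding promoters. Their shares in members were smaller than in weaker divergent peaks, and these differences were not tested. Words of different length differ in how often they occur, so their shares are not comparable with each other or with that of TATAAA. TATCGATA, the DRE, was in 3.96% (2.53 to 5.88%) of members, 1.72% of unidirectional coding promoters, 6.20% of weaker divergent peaks and 4.37% of pair midpoints. CGATA, which lies within the DRE, was in 21.0% (17.8 to 24.5%), 18.5%, 28.5% and 22.3%. GGTCACAC, the motif 1 core, was in 3.27% (1.98 to 5.06%), 1.29%, 5.18% and 2.49%, and CATCNCT, the core of motif 7, in 5.85%, 3.98%, 6.65% and 4.61%. Among divergent peaks in the top of replicate 1 the DRE share was 6.17%, against 3.09% in the top of replicate 2, and the motif 1 core share was 3.19% against 1.62%. GAGAG, bound by GAGA factor, was in 5.85% of members and 10.6% (8.74 to 12.8%) of unidirectional coding promoters. Within members the 19 with the motif 1 core had a median signal of 140.8 and the 23 with the DRE had 168.8, both under the 192.1 of all members. A match is a description of letters and was not tested as a binding site.

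These words lay to the side of the summit in members. The DRE occurred 0.371 times per kb within 25 bp of the summit (11 matches) and 0.740 at over 50 to 100 bp (43 matches). It occurred 0.637 times at over 100 to 150 bp (37 matches) and 0.293 at over 150 to 200 bp (17 matches). These rates rest on few matches and have no intervals. In weaker peaks the DRE was most frequent at the summit, 0.702 per kb (56 matches), and fell to 0.588 at over 50 to 100 bp (92 matches). The motif 7 core went from 0.540 per kb within 25 bp to 1.34 at over 50 to 100 bp and 1.34 at over 100 to 150 bp in members, and was 0.727 at the summits of weaker peaks. TATAAA did the opposite in members, from 4.25 per kb within 25 bp to 1.96 at over 150 to 200 bp. Unidirectional coding promoter peaks moved in the same directions. There the DRE went from 0.148 per kb within 25 bp (7 matches) to 0.247 at over 50 to 100 bp (23 matches). The motif 7 core went from 0.422 to 0.763 at over 100 to 150 bp, and TATAAA from 3.08 to 1.59 at over 150 to 200 bp. The quartiles of the distance from a member summit to the nearer TSS, 67 and 139 bp where the summit lies between the TSSs, fall within over 50 to 150 bp. The distance of the words from the TSSs was not measured, and whether their positions follow the TSSs was not tested.

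**Figure D5:**
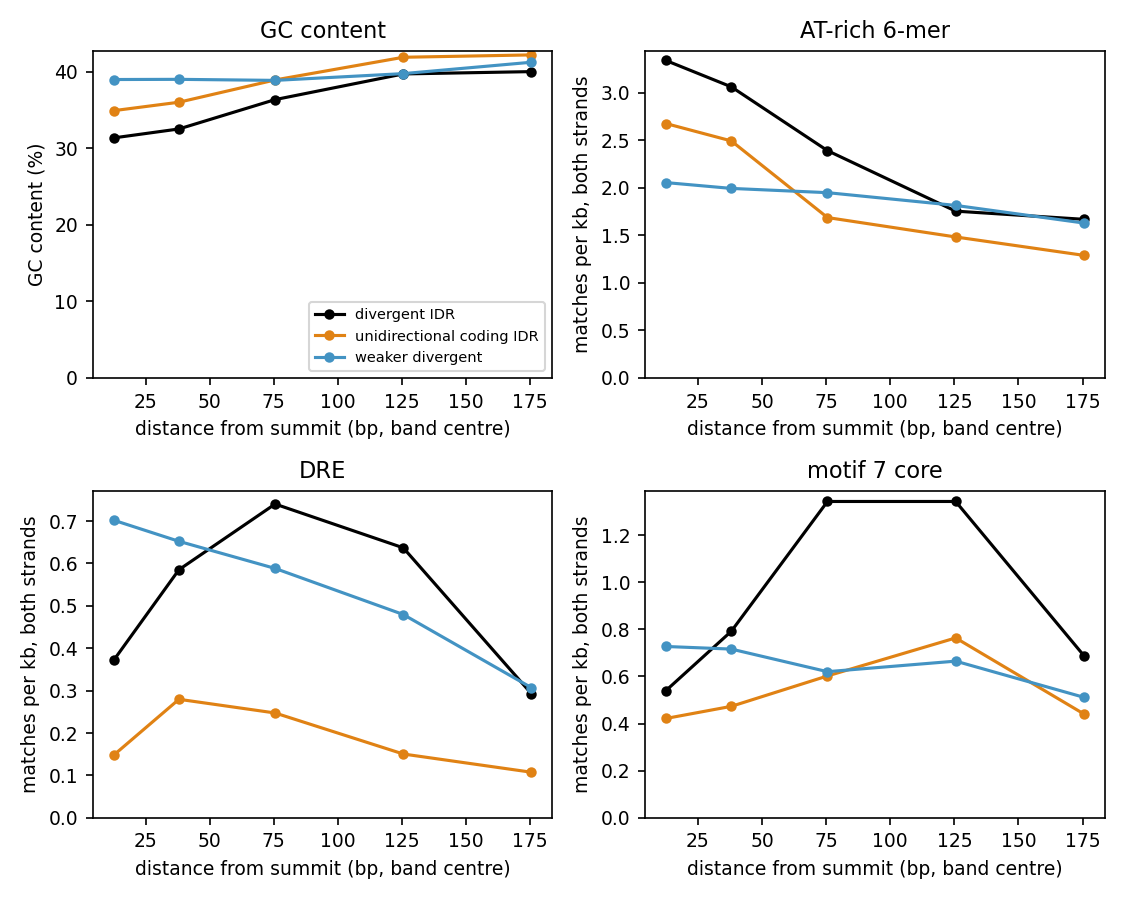
GC content and matches per kb of 3 words by distance from the summit, for divergent promoter peaks of the IDR list, unidirectional coding promoter peaks of the IDR list and weaker divergent peaks. The AT-rich 6-mer is the second of the AT-rich words named in the text. In divergent IDR peaks the DRE reaches 0.740 per kb at over 50 to 100 bp (43 matches) against 0.371 within 25 bp (11 matches).

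At the limit of the rule, 13 members had their farther strand's TSS at over 450 to 500 bp, with a median signal of 171.5, and 17 IDR summits just outside had it at over 500 to 550 bp, with a median of 199.8.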

How the data were processed

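The files are peak lists on dm6. The deposited text files name a control alignment and the replicate's own alignment as the sources of each replicate list, both replicates for the pooled list, and these lists for the IDR list. The sources used here do not give the aligner, the peak caller, the IDR threshold or the read depth. Depth being unknown, no read-based interval is given. Each deposited peak carries the authors' signal value, used to rank peaks, and a −log10 q-value, used only to count peaks with q under 0.05 (13201 of the 30000 pooled peaks, 11103 in replicate 1 and 12466 in replicate 2). Per the labels, chromatin was sonicated with a size range of 200 to 800.

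Gene starts came from Ensembl release 115 (BDGP6), whose arm lengths were checked against the Release 6 assembly. Transcripts of protein-coding, ncRNA, tRNA, snRNA, snoRNA and rRNA biotypes were used. Weaker peaks are the 25659 pooled peaks that overlap no IDR peak by 1 bp. Replicate support was the replicate peak of highest signal among those overlapping the member by at least 1 bp. The top of a replicate is its 3571 peaks of highest signal. Printed sequences were limited to pairs at most 300 bp apart with no annotated exon between, none from arm 2R. Words and GC content were read 50 bp either side of each summit.

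Named are the 25 members of highest signal, the 5 of smallest and 5 of largest spacing, the 5 with the largest rank difference, up to 4 per gene list, and pairs with most peaks, of which 1 pair of small spacing is not reported here. Further ribosomal protein pairs, the pre-mod(mdg4) pair, the strongest overlapping pairs, the GC bands, the distance profiles and the distances to list genes were chosen after their values were seen. Members, words and lists were chosen with earlier results of these data known. Shares have Clopper-Pearson 95% intervals, and no test was run. The rule was tested on simulated data. Versions were matplotlib 3.10.9, scipy 1.17.1, pandas 2.3.3, numpy 2.4.6 and Python 3.11.15.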

Additional observations from a re-analysis of the deposited data

How the results depend on the processing

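The TSS window, the peak list, the replicate, the pair choice, the biotypes and the sequence window were each changed in turn. Median spacing was 235 bp with a 250 bp window, 304 bp with 1000 bp and 259 bp with the closest pair of TSSs, and 269.5 to 284 bp with a single replicate (the higher without replicate 1). The median position between nearer TSS and midpoint was 0.296 to 0.366 with a single replicate (the lower without replicate 2). The 250 bp window gave 96.5% head-to-head and 93.2% coding pairs. The 1000 bp window gave 86.8% coding pairs, 74.1% of summits between the TSSs and 23.9% of annotated pairs with a summit. The 1000 strongest IDR peaks gave 168 members, a median signal of 370.9, 92.3% coding pairs, 97.0% in the top of both replicates and 5.96% of annotated pairs. Head-to-head order was 97.5% with coding TSSs only and 96.9% counting any head-to-head pair. Overlap of at least 50% of either peak gave 97.6% support from both replicates. Of 136 word shares recomputed, 44 moved by at least the SD between the values of the replicates. No paired analysis was possible because there is a single group. The alternatives with replicate summits and with nearest-summit matching were added after the data were seen. Depth is unknown, and the 2 replicates are the only measure of spread.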
